A study of Mus musculus with 11 samples.

Results

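The genes described here are 10 members of bone morphogenetic protein (BMP) signalling: the secreted ligands Bmp2, Bmp4, Bmp6 and Bmp7, the receptor Acvrl1, the inhibitory Smads Smad6 and Smad7, and the target genes Id1, Id2 and Id3. They were taken by name, with no measured value used, from the 26921 genes counted in at least 1 library. Single cells of mouse brain cortex (strain C57BL/6) had been captured with the 10x 3′ assay after enzymatic digestion and myelin depletion, which leaves few neurons and oligodendrocytes. The 11 libraries comprised 4 juvenile libraries (postnatal day 10), 3 adult libraries (7 to 11 weeks), 2 aged libraries (18 months) and 2 libraries from mice with experimental autoimmune encephalomyelitis (EAE), all from 1 tissue. EAE mice were females of 7 to 11 weeks that had received a myelin oligodendrocyte glycoprotein peptide in Complete Freund's Adjuvant and pertussis toxin, and the adult libraries came from mice without treatment. Cortices of 6 mice were pooled for each juvenile and adult sample and of 3 mice for each aged and EAE sample, so no library belongs to a single animal. Nothing in the sources used here says whether libraries of a condition are separate pools, so p-values measure the spread between these libraries, which may be technical.

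BMP ligands are secreted dimers that bring together type I and type II serine/threonine kinase receptors, which phosphorylate Smad1, Smad5 and Smad9. These Smads enter the nucleus with Smad4 and raise transcription of target genes, among them the Id genes, whose proteins bind basic helix-loop-helix factors and keep them from DNA. Smad6 and Smad7 are themselves targets and dampen the pathway at the receptor. In blood vessels the type I receptor Acvrl1 answers to circulating BMPs with the co-receptor endoglin, and its loss causes arteriovenous malformations. At the choroid plexus and in the meninges BMP ligands are known from development, where they pattern the dorsal midline.

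RefSeq promoters (GRCm38.p6) were at hand for 5 of the 10 genes (Id2, Id3, Smad6, Bmp4 and Bmp6). The 250 bases upstream of the start are shown for Bmp4 and Smad6. Of the 4 tested there (Bmp6 was too low) these differed most between arterial and capillary vessels in the fit over all conditions below. Those of Id2, Id3 and Bmp6 lie within the annotated extent of the genes and are not shown. Capitals mark GTCT or its reverse complement AGAC, the letters of the Smad-binding element, and GGCGCC, which reads alike on both strands and occurs in GC-rich BMP response elements, was searched as well. The letters of these motifs cannot overlap each other. The sequences are written 5′ to 3′ in the direction of transcription (Bmp4 at chr14:46390670-46390919 and Smad6 at chr9:64022060-64022309, both minus strand).
Bmp4: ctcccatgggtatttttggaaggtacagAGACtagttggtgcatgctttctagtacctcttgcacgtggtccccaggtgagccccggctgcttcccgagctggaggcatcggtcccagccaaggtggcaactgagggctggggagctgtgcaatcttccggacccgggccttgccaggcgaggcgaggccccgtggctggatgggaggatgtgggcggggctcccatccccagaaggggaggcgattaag
Smad6: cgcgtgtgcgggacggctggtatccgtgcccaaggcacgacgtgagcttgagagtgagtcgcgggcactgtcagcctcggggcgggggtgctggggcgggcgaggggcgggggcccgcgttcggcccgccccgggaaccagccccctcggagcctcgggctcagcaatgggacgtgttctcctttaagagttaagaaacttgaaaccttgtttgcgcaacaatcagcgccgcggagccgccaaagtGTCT
Each window held GTCT or AGAC at 1 place and GGCGCC at 0. GTCT on either strand was present in 82.86% of the 32851 mouse promoter windows of this length, so a match is common, and GGCGCC in 9.586%. Of the 5 windows, that of Id2 held GGCGCC.

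By the GENCODE vM21 annotation of GRCm38, which shares its coordinates with mm10, Bmp2 lies at chr2:133552159-133562885 (plus strand), Bmp4 at chr14:46383520-46390669 (minus), Bmp6 at chr13:38345107-38500302 (plus) and Bmp7 at chr2:172868012-172940321 (minus). Acvrl1 spans chr15:101128522-101145336 (plus) and Smad6 chr9:63953076-64022059 (minus). Smad7 occupies chr18:75367529-75395935 (plus). Id1 is at chr2:152736251-152737410 (plus), Id2 at chr12:25093799-25097140 (minus) and Id3 at chr4:136143497-136145755 (plus).

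The libraries held 54646 barcodes and 15755504 to 34326349 unique molecular identifiers (UMIs) each, and 50625 cells passed the filters. Barcodes found in more than 1 library made up 3.45% of all barcodes. Clusters were named from markers without the 10 genes, and gave 20629 endothelial-like cells (ECs), 1122 fibroblast-like cells, 6470 choroid plexus epithelium-like cells and 1383 mural-like cells (pericytes and smooth muscle). The markers of each name were present in its cells: the 8 EC markers summed to 14776 to 29222 CPM (a gene's counts scaled to the total UMIs of its cell type in a library) in ECs, against 323 to 2374 CPM in the other 3 types, and all 7 choroid plexus markers were present at 326144 to 371109 CPM in choroid plexus cells. In the other 3 types they were at 4723 to 55936 CPM. The 8 fibroblast markers summed to 5739 to 12649 CPM in fibroblast-like cells and at most 1542 CPM in the other 3. In adult fibroblast-like cells they lay below the choroid plexus markers, at 15985 to 51657 CPM. The 10 mural markers were at 31149 to 45133 CPM in mural cells and at most 2790 CPM in the other 3. Astrocyte markers reached 3460 CPM in fibroblast-like and 5815 CPM in mural cells. Fibroblast-like cells were few outside the juvenile libraries, with 954 juvenile, 58 adult, 74 aged and 36 EAE cells. ECs of different conditions lay largely in different clusters. A single cluster held 2638 of 3102 juvenile ECs, another pair 4030 and 1815 of 6912 EAE ECs, and a further cluster 3578 of 4933 adult and 4663 of 5682 aged ECs. Arterial and venous ECs, named as described below, were 431 and 257 of 3102 juvenile ECs and 244 and 340 of 4933 adult ones. They were 205 and 410 of 5682 aged and 129 and 703 of 6912 EAE ECs. Arterial ECs were 17 of 827 ECs in adult 1, against 104 of 1994 and 123 of 2112 in adult 2 and 3. Adult 1 stood apart from the other adult libraries, with choroid plexus markers in ECs at 51383 CPM against 17601 to 18268 CPM and 14 immediate early genes at 9322 CPM against 19047 to 19409 CPM. The pairs adult 2 and 3, juvenile 1 and 2, and juvenile 3 and 4 were nearly alike, and calls that are lost when each pair is summed are named beside the result as lost with near-identical libraries summed. EAE 1 and EAE 2 were close to each other too, with a mean squared z of their difference over genes of 1.69 in ECs and 1.42 in microglia-like cells, against at most 1.46 in the 3 pairs. For the 10 genes the tests were therefore run with these 2 libraries summed as well (all alike libraries summed), where the single EAE sum is assumed to vary like the other conditions, and the calls newly lost through this are named too. Those already lost with near-identical libraries summed were lost here as well, save Smad7 between fibroblast-like and mural cells. The other pathway genes were not tested in that way.

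By the mean of the 4 condition means, and among the 4 cell types, Bmp4, Bmp7, Id2 and Id3 were highest in fibroblast-like cells and Acvrl1, Smad7 and Id1 in ECs. These orders did not all hold in every condition. Bmp4 was highest in fibroblast-like cells (mean of the 4 condition means 210.8 CPM), lower in mural cells (49.4 CPM) and choroid plexus cells (18.5 CPM) and lowest in ECs (5.06 CPM). In juvenile libraries, however, mural Bmp4 (8.41 CPM) lay below choroid plexus Bmp4 (28.6 CPM) and near that of ECs (8.83 CPM). Bmp7 was at 89.9 CPM in fibroblast-like cells, 53.5 CPM in choroid plexus cells, 1.76 CPM in ECs and 1.05 CPM in mural cells. Acvrl1 was highest in ECs, at 504.1 CPM against 48.6 CPM in fibroblast-like, 37.2 CPM in mural and 17.0 CPM in choroid plexus cells. Among the targets, Id1 was highest in ECs (1007 CPM) and Id2 in fibroblast-like cells (803 CPM), while Id3 had means of 2122 CPM in fibroblast-like cells, 1635 CPM in ECs and 1356 CPM in mural cells against 232 CPM in choroid plexus cells. In EAE libraries Bmp7 was at 51.2 CPM in fibroblast-like and 61.2 CPM in choroid plexus cells. Id3 was there at 2140 CPM in fibroblast-like cells and 2160 CPM in both ECs and mural cells.

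**Figure D1:**
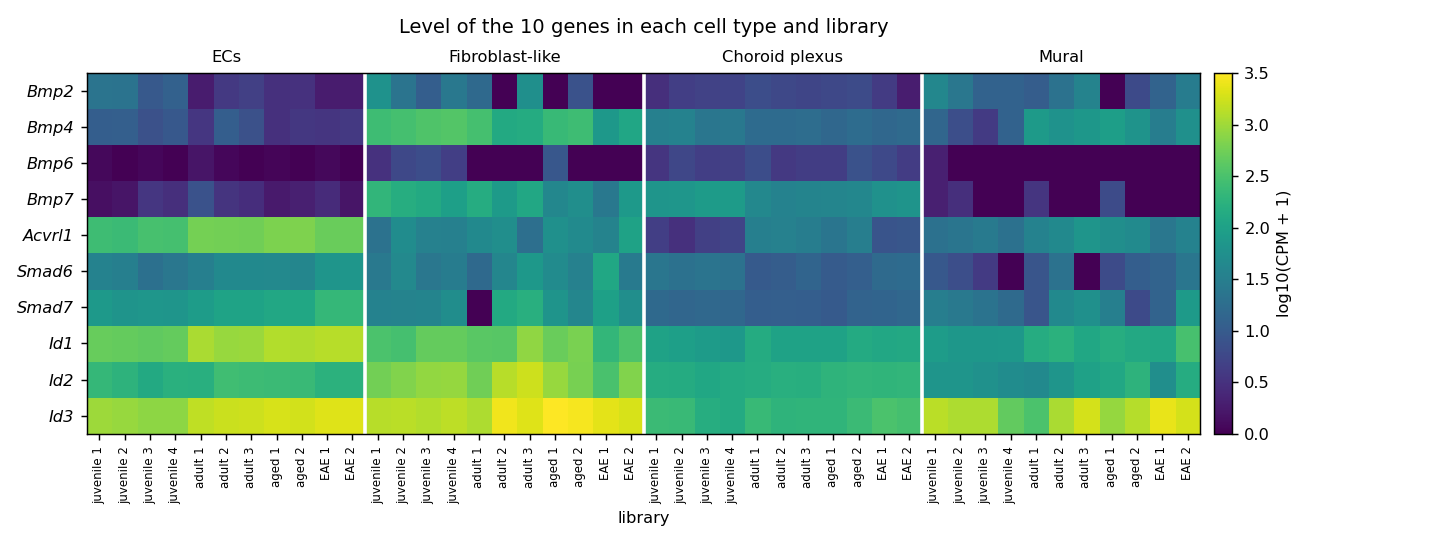
Level of the 10 genes (rows) in each cell type and library (columns, 11 libraries for each of 4 cell types), as log10(CPM + 1). Within a library, Bmp4 is brightest in the fibroblast-like column, as is Bmp7 save in EAE 1, where choroid plexus cells are higher. Acvrl1 is brightest in the EC column, as is Id1 save in juvenile 3 and juvenile 4, where fibroblast-like cells are slightly higher. Bmp6 is near 0 in ECs and mural cells.

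These differences were tested for 9 of the 10 genes, since Bmp6 was too low, in edgeR with the library as a block. Between ECs and fibroblast-like cells 7 of 9 genes were called (background 55.0% of 11444 genes), between ECs and choroid plexus cells 7 (76.4%), between ECs and mural cells 7 (48.1%), between fibroblast-like and choroid plexus cells 6 (62.1%), between fibroblast-like and mural cells 7 (38.0%) and between choroid plexus and mural cells 5 (65.3%). Most genes differ between such cell types, so the counts say little beside the backgrounds and the sizes matter more. Acvrl1 was higher in ECs by 4.54 ± 0.25 (approximate SE) on the log2 scale over choroid plexus cells (adjusted p = 1.65e-18), 3.89 over mural cells and 3.403 over fibroblast-like cells. Bmp4 was lower in ECs than in fibroblast-like cells by a log2 difference of -5.13 ± 0.38 (adjusted p = 9.06e-14). Bmp7 separated fibroblast-like and choroid plexus cells, which were not separated from each other (log2 difference 0.03 ± 0.25, adjusted p = 0.927), from mural cells, by 6.42 and 6.39 on the log2 scale.

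Neighbours in these orders often did not separate. Id3 in ECs differed from Id3 in fibroblast-like cells by -0.14 ± 0.18 (adjusted p = 0.541) and from mural cells by 0.39 ± 0.18 (adjusted p = 0.0717; 0.0475 with near-identical libraries summed), both on the log2 scale. Bmp4 did not separate choroid plexus from mural cells (log2 difference -0.20, adjusted p = 0.689), nor Smad6 ECs from fibroblast-like cells (0.35, adjusted p = 0.249), nor Id2 ECs from choroid plexus cells (-0.31, adjusted p = 0.0664). The Bmp4 fit takes the conditions together, and the order turned with age. Choroid plexus Bmp4 was at 22.5 to 35.3 CPM against 2.94 to 13.2 CPM in mural cells of juvenile libraries. In all other libraries it was at 13.6 to 16.7 CPM against 29.6 to 89.8 CPM. Id2 was higher in fibroblast-like cells than in ECs by 1.72 (adjusted p = 3.71e-12 for the log2 difference -1.72 of ECs) and than in mural cells by 3.14. Smad7 in ECs stood above choroid plexus cells by 2.52, mural cells by 2.01 and fibroblast-like cells by 1.23 on the log2 scale.
Some calls rested on single libraries. The lower Bmp2 of ECs against fibroblast-like cells (log2 difference -1.24, adjusted p = 0.0209) had an adjusted p of 0.0744 without juvenile 1. The higher Id3 of fibroblast-like against mural cells (0.53, adjusted p = 0.0193) had 0.054 without adult 2, 0.0802 without aged 1, 0.0593 without aged 2 and 0.0823 without juvenile 4. Smad7 in the same pair (0.78, adjusted p = 0.0363) had 0.0587 without adult 2, 0.0569 without aged 1, 0.0613 without aged 2, 0.064 without EAE 1, 0.0954 without juvenile 4 and 0.0569 with near-identical libraries summed. Id1 between choroid plexus and mural cells (0.52, adjusted p = 0.0148) had 0.0527 without juvenile 3, 0.105 with near-identical libraries summed and 0.407 with cells named by a marker score, where the log2 difference was 0.16.
Comparisons with choroid plexus cells also depended on the scaling. With plain totals in place of TMM factors the median of all genes moved from -0.02 to 0.57 on the log2 scale between ECs and choroid plexus cells, from -0.20 to 0.63 between fibroblast-like and choroid plexus cells and from 0.13 to -0.58 between choroid plexus and mural cells, so the order of the mean CPM need not be that of the fitted differences. Id1, whose mean CPM was lower in choroid plexus (113 CPM) than in mural cells (145 CPM), then differed by -0.20 (adjusted p = 0.342), against the direction given above. Id2, at 205 CPM in ECs and 171 CPM in choroid plexus cells, turned to 0.28 (adjusted p = 0.102). Some pairs that TMM scaling did not separate were called with plain totals. Fibroblast-like cells then stood above choroid plexus cells in Bmp7 (0.87 ± 0.25, adjusted p = 0.00244), Bmp2 (1.63, adjusted p = 0.00499) and Smad6 (1.28, adjusted p = 6.26e-05). Choroid plexus cells stood below mural cells in Smad7 (-1.22, adjusted p = 0.000277) and Bmp2 (-1.76, adjusted p = 0.00241). Id3 was lower in ECs than in fibroblast-like cells (-0.44, adjusted p = 0.0417).

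How many of the genes moved with condition was counted in each cell type by edgeR's quasi-likelihood test with Benjamini-Hochberg adjustment, against the adult libraries, which all 3 contrasts share. In ECs 6 of 9 genes were called in juvenile libraries (background 48.2% of 13724 genes; 1 higher, 5 lower), 1 of 9 in aged libraries (9.98%) and 5 of 9 in EAE libraries (32.2%; 4 higher, 1 lower). In choroid plexus cells 6 of 10 were called in juvenile (61.6% of 12800 genes), 0 of 10 in aged (2.51%) and 4 of 10 in EAE libraries (37.9%). In mural cells 3 of 6 were called in juvenile (31.4% of 4627 genes), 0 in aged (0.0432%) and 0 in EAE libraries (2.14%). In fibroblast-like cells 0 of 6 were called in juvenile (6.75% of 3081 genes), aged (0.0325%) and EAE libraries (5.49%). At an unadjusted p of 0.05 the counts of 0 became 1 in choroid plexus cells of aged libraries, 1 and 0 in mural cells of aged and EAE libraries, and 3, 1 and 2 in fibroblast-like cells of juvenile, aged and EAE libraries, while DESeq2 called 0 in each of them. The share of these genes that was called lay above the background in ECs of juvenile and EAE libraries and in mural cells of juvenile libraries, and near or below it elsewhere. With at most 10 genes per cell type these shares are coarse, and their distance from the background was not tested. With all alike libraries summed, fewer genes of any kind were called, and the counts in ECs were 4 of 9 in juvenile (25.7% of all genes there), 0 in aged (1.26%) and 2 of 9 in EAE libraries (8.26%).

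Bmp4, a ligand that acts on vessels and epithelia in development, had its largest change with age among the 4 whole cell types in mural cells. It was at 13.2, 5.96, 2.94 and 11.6 CPM in mural cells of the juvenile libraries, 79.3, 60.3 and 70.9 CPM in the adult, 89.8 and 61.9 CPM in the aged and 29.6 and 57.1 CPM in the EAE libraries. All 4 juvenile values lay below all others. The log2 fold change of juvenile against adult was -3.05 ± 0.38 (adjusted p = 2.02e-05), with no call in aged (-0.02 ± 0.40) or EAE libraries (-0.74 ± 0.46, adjusted p = 0.463). These values rest on 1 to 32 UMIs per library. Within pericytes, where most of the mural Bmp4 was found, levels ran from 6.91 to 21.2 CPM in juvenile, 80.1 to 148.5 CPM in adult, 94.4 to 113 CPM in aged and 68.6 to 108 CPM in EAE libraries, and the juvenile difference was -2.85 ± 0.42 on the log2 scale (adjusted p = 1.4e-06). In smooth muscle cells 0 to 4 UMIs were counted per library. The makeup of mural cells differed between conditions: smooth muscle cells were 231 of 515 juvenile, 86 of 406 adult, 42 of 257 aged and 61 of 205 EAE cells, and 1 subcluster of smooth muscle cells (139 juvenile, 1 adult cell) and 1 of pericytes (95 juvenile, 2 adult cells) were nearly all juvenile, while another of pericytes held 107 EAE cells and no others.

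In fibroblast-like cells Bmp4 was at 262, 292, 340 and 366 CPM in juvenile, 297, 133 and 143 CPM in adult, 225 and 260 CPM in aged and 72.4 and 117 CPM in EAE libraries. The 2 EAE libraries were the lowest, but they held 6 and 9 UMIs of the gene, and the adult libraries, from 8 to 20 UMIs, overlapped with the juvenile ones. Neither the juvenile difference (log2 fold change 0.71 ± 0.28, adjusted p = 0.161) nor that in EAE (-0.97 ± 0.45, adjusted p = 0.253) was called. The fibroblast-like cells came as a cluster led by Mgp, Gja1, Nov and Cldn11 (788 juvenile, 50 adult, 58 aged and 14 EAE cells) and a smaller one led by Dcn, Col1a1, Cxcl12 and Col3a1 (166, 8, 16 and 22 cells), so that most EAE cells lay in the latter. In the juvenile libraries Bmp4 was at 384 to 420 CPM in the former and 16.7 to 37.4 CPM in the latter, and Bmp2 the other way round, at 0 to 1.79 CPM and 63.2 to 188.7 CPM. In the EAE libraries the former held 1 and 9 UMIs of Bmp4 (59.7 and 241 CPM), too few cells for a fit, and the part of the split in the low EAE values was not tested. Within the former alone, Bmp4 was higher in juvenile than adult libraries by 0.75 ± 0.22 on the log2 scale (adjusted p = 0.0417).

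**Figure D2:**
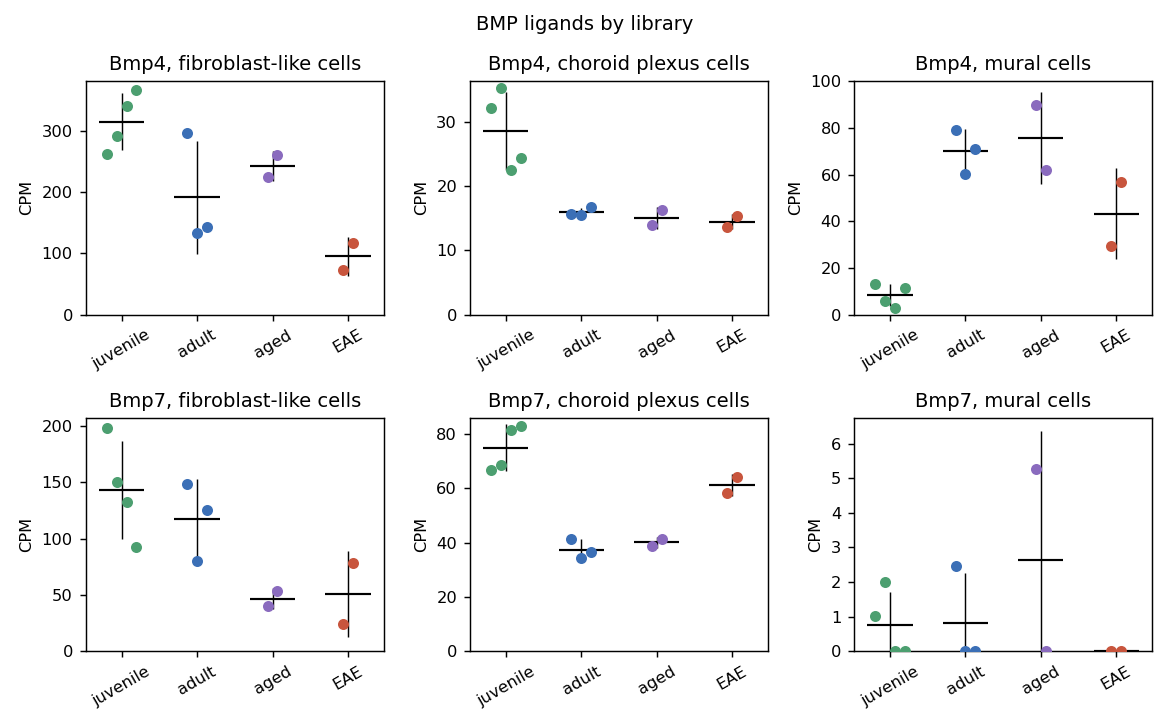
Bmp4 (upper row) and Bmp7 (lower row) in CPM on the vertical axes, by condition, in fibroblast-like, choroid plexus and mural cells. Points are libraries, horizontal lines means and vertical bars SDs (4 juvenile, 3 adult, 2 aged and 2 EAE libraries). Mural Bmp4 is at 2.94 to 13.2 CPM in juvenile libraries and at 29.6 to 89.8 CPM in all others, and choroid plexus Bmp7 in juvenile and EAE libraries lies above all adult and aged values.

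In choroid plexus cells Bmp4 and Bmp7 were both higher in juvenile libraries. Bmp4 was at 32.2, 35.3, 22.5 and 24.4 CPM in juvenile, 15.7, 15.6 and 16.7 CPM in adult, 13.9 and 16.3 CPM in aged and 13.6 and 15.3 CPM in EAE libraries. The juvenile values did not overlap with any other condition (log2 fold change 0.59 ± 0.15, adjusted p = 0.00215). Bmp7, a ligand made by epithelia of many organs, was at 66.9, 68.6, 81.6 and 83.2 CPM in juvenile, 41.5, 34.2 and 36.7 CPM in adult, 38.8 and 41.4 CPM in aged and 58.4 and 64.1 CPM in EAE libraries. It was higher both in juvenile (0.84 ± 0.10, adjusted p = 3.35e-07) and in EAE libraries (0.57 ± 0.12, adjusted p = 0.000659) on the log2 scale, without overlap with the adult values. Bmp2 was low in these cells and lower in EAE, at 3.10 and 0.921 CPM against 4.42 to 5.74 CPM in adult libraries (log2 fold change -1.47 ± 0.40, adjusted p = 0.00578), and this call was lost without EAE 2 (adjusted p = 0.187). The 8 fibroblast markers in choroid plexus cells summed to 148 to 163 CPM in juvenile, 26.2 to 43.1 CPM in adult, 32.9 to 42.8 CPM in aged and 70.9 to 73.9 CPM in EAE libraries, against 5739 to 12649 CPM in fibroblast-like cells, and their part in the Bmp4 and Bmp7 of choroid plexus cells was not tested. Most choroid plexus cells of juvenile libraries (1667 of 1976) formed a cluster of their own, and 475 of 854 EAE cells lay in another that also held 260 adult cells.

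Bmp7 in fibroblast-like cells was at 198, 150.3, 133 and 93.0 CPM in juvenile, 148, 80.1 and 125 CPM in adult, 40.2 and 53.3 CPM in aged and 24.1 and 78.2 CPM in EAE libraries. The aged and EAE values rest on 2 to 8 UMIs, and neither difference was called (log2 fold changes -1.29 ± 0.62, adjusted p = 0.53, and -1.15 ± 0.70, adjusted p = 0.402). Bmp6 had the lowest mean of Bmp2, Bmp4, Bmp6 and Bmp7 in ECs, mural and fibroblast-like cells, with 0 to 2 UMIs per library in ECs and 1 UMI in all mural libraries together. In choroid plexus cells Bmp2 had the lowest mean (3.83 CPM, against 4.10 CPM for Bmp6). Bmp6 was at 2.44 to 6.53 CPM there, and no contrast of it was called (log2 fold changes -0.41, 0.25 and -0.16 in juvenile, aged and EAE libraries, adjusted p = 0.256, 0.826 and 0.748).

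Bmp2 was the ligand called in juvenile ECs. It was at 21.3, 20.3, 8.52 and 11.3 CPM in juvenile, 0.875, 2.87 and 3.66 CPM in adult, 2.10 and 2.16 CPM in aged and 0.837 and 0.856 CPM in EAE libraries. All juvenile values lay above all others, and the log2 fold change against adult was 2.54 ± 0.39 (adjusted p = 0.000166). The EAE difference missed the threshold (-1.47 ± 0.59, adjusted p = 0.0742). Fibroblast markers in ECs, 8 genes, summed to 36.8 to 67.3 CPM in juvenile, 19.8 to 26.3 CPM in adult, 10.6 to 17.9 CPM in aged and 8.84 to 9.95 CPM in EAE libraries, against 5739 to 12649 CPM in fibroblast-like cells, and their part in the Bmp2 of ECs was not tested. Bmp2 was higher in arterial and venous than in capillary ECs, and the part of their shares, given above, was not tested either.

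Bmp4 in ECs was at 10.3, 10.4, 6.39 and 8.34 CPM in juvenile, 2.63, 10.1 and 6.37 CPM in adult, 2.10 and 2.67 CPM in aged and 2.42 and 2.85 CPM in EAE libraries. Adult 1, at 2.63 CPM, lay among the aged and EAE libraries, so the groups overlapped. Bmp4 was higher in arterial than in capillary ECs, and arterial shares differed between conditions and between adult libraries, as given above. The part of these shares in the Bmp4 of all ECs was not tested. Fibroblast markers in ECs, given above beside Bmp2, were highest in juvenile and lowest in EAE libraries, and their part in the Bmp4 of ECs was not tested. The differences of aged (log2 fold change -1.50 ± 0.42, adjusted p = 0.0417) and EAE (-1.16 ± 0.40, adjusted p = 0.0395) from adult libraries were called, but neither held with near-identical libraries summed (adjusted p = 0.142 and 0.121). For aged libraries the adjusted p was 0.159 without adult 2, 0.0854 without adult 3, 0.29 without aged 1, 0.182 without aged 2, 0.0678 without EAE 1, 0.0679 without EAE 2 and 0.0527 without juvenile 4. For EAE it was 0.205 without adult 2, 0.0693 without adult 3, 0.0594 without aged 1, 0.0597 without aged 2, 0.215 without EAE 1 and 0.136 without EAE 2. Bmp7 in ECs was at 0.402 to 6.71 CPM, highest in adult 1, and moved with choroid plexus markers. As a share of the choroid plexus level of the same library, Bmp7 in ECs was 0.601 to 3.13% in juvenile, 16.2% in adult 1, 5.17 and 6.8% in the other adult, 2.03 and 2.46% in aged and 0.89 and 2.87% in EAE libraries, and the 7 choroid plexus markers were at 1.28 to 2.78%, 14.9%, 4.82 and 5.2%, 1.75 and 2.46%, and 2.1 and 2.22% in the same order. The part of choroid plexus transcripts in the Bmp7 of ECs was not tested further. Bmp7 had no call in juvenile (adjusted p = 0.165), aged (0.15) or EAE libraries (0.167).

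Acvrl1, the receptor, was lower in juvenile ECs than in every other library. It was at 257, 246, 300.1 and 290 CPM in juvenile, 584, 573 and 562 CPM in adult, 654 and 674 CPM in aged and 511 and 502 CPM in EAE libraries. The log2 fold change of juvenile against adult was -0.98 ± 0.09 (adjusted p = 1.04e-06). In aged libraries it was 0.22 ± 0.11 (adjusted p = 0.214). In EAE, where CPM was lower than in all adult libraries, TMM scaling gave 0.02 ± 0.11 (adjusted p = 0.902) and plain totals gave -0.18 (adjusted p = 0.151), against a median of all genes of -0.19 under plain totals. The 8 EC markers summed to 14776 to 20506 CPM in juvenile against 26903 to 29222 CPM in adult ECs, and their part in the lower Acvrl1 was not tested. Mitotic and tip cells were 255 and 38 of 3102 juvenile ECs, against 1 and 1 of 4933 adult ones. In juvenile libraries the mitotic cells held Acvrl1 at 149.1 to 189.5 CPM. The part of mitotic and tip cells in this and the other juvenile EC differences was not tested. Values for capillary ECs alone, without these cells, are given below.

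**Figure D3:**
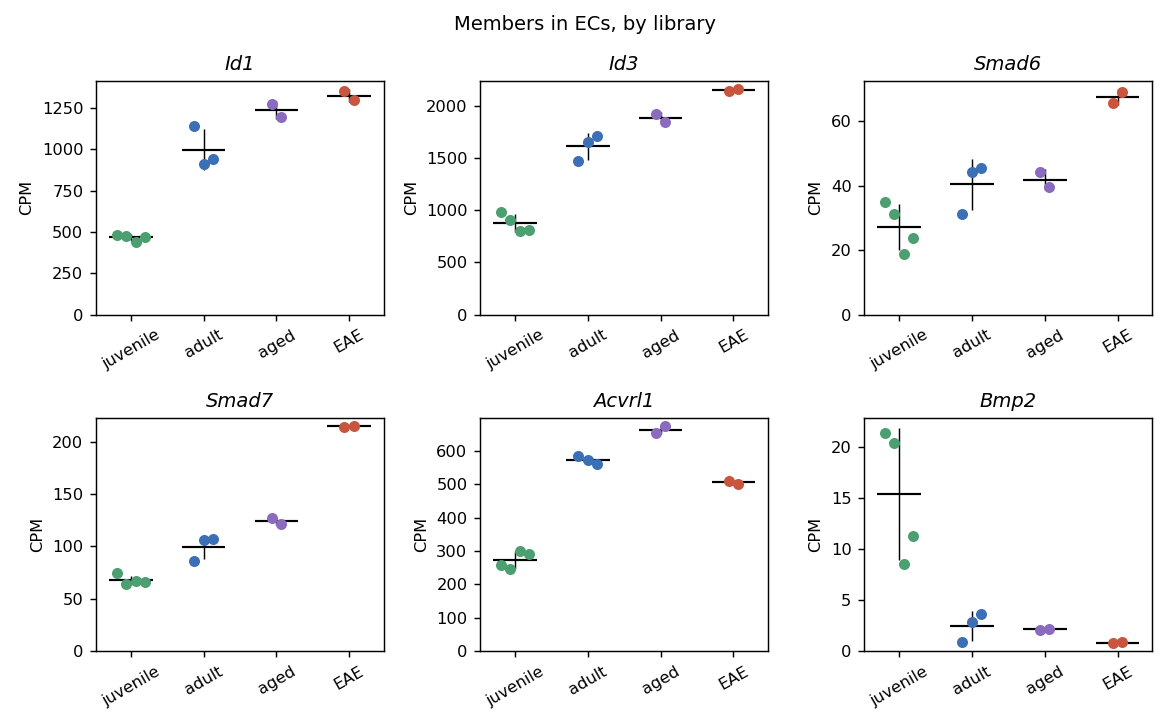
Levels in ECs in CPM (vertical axes) by condition, with points for libraries, horizontal lines for means and vertical bars for SDs (4 juvenile, 3 adult, 2 aged and 2 EAE libraries). Acvrl1, Id1 and Id3 are lower in all juvenile libraries than in any other, and Smad7 in the EAE libraries, at 214 and 215 CPM, lies above all others.

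In choroid plexus cells Acvrl1 was the gene with the largest change, and it moved together with EC markers. It was at 3.42, 2.02, 3.58 and 4.23 CPM in juvenile, 31.1, 33.8 and 29.2 CPM in adult, 21.9 and 30.0 CPM in aged and 7.22 and 7.74 CPM in EAE libraries (log2 fold changes -3.31 ± 0.18 in juvenile, adjusted p = 9.93e-13, and -2.19 ± 0.19 in EAE, adjusted p = 1.98e-08). The sum of the 8 EC markers in the same cells was 475 to 584 CPM in juvenile, 1727 to 1881 CPM in adult, 1101 to 1488 CPM in aged and 513 to 549 CPM in EAE libraries. Given as a share of its level in the ECs of the same library, Acvrl1 in choroid plexus cells was 0.819 to 1.46% in juvenile, 5.20 to 5.90% in adult, 3.36 to 4.46% in aged and 1.41 to 1.54% in EAE libraries. The tight junction gene Cldn5, a defining EC marker, gave 0.841 to 1.29%, 4.83 to 5.18%, 2.78 to 4.195% and 1.19 to 1.28% in the same order. For Acvrl1, Cldn5 and Flt1 alike, every adult and aged share lay above every juvenile and EAE share, while the order of libraries within a condition differed between the genes, and what EC transcripts in these cells contribute to Acvrl1 was not tested further. Endoglin (Eng), the co-receptor, moved likewise (-2.31 and -2.07 on the log2 scale in juvenile and EAE libraries).

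**Figure D4:**
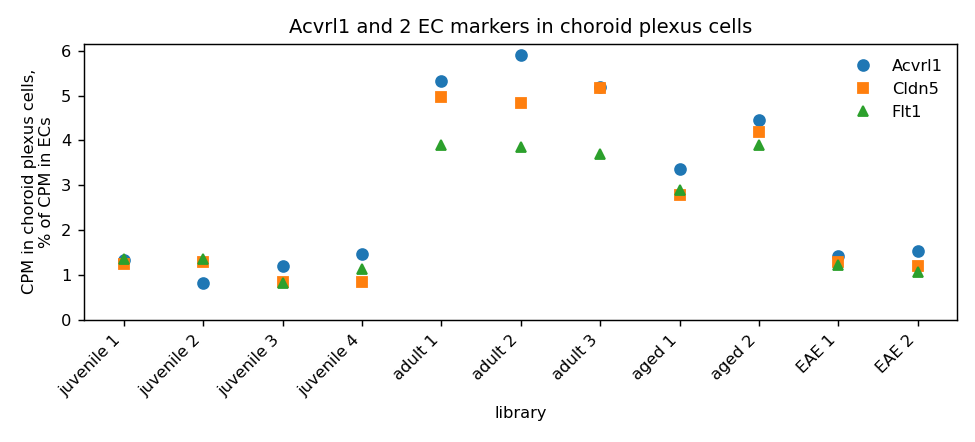
Level in choroid plexus cells as a percentage of the level in ECs of the same library (vertical axis), for Acvrl1 and the EC markers Cldn5 and Flt1, in each of the 11 libraries (horizontal axis). Acvrl1 is at 0.819 to 1.54% in juvenile and EAE libraries and at 3.36 to 5.90% in adult and aged libraries, and both markers are likewise lower in juvenile and EAE libraries.

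Mural Acvrl1 was 19.2 to 26.4 CPM in juvenile against 34.7 to 65.8 CPM in adult libraries (log2 fold change -1.18 ± 0.34, adjusted p = 0.0144), a call that was lost without adult 3 (adjusted p = 0.0841) and with all alike libraries summed (0.0663). EC markers in mural cells summed to 323 to 418 CPM in juvenile and 1282 to 1412 CPM in adult libraries, and their part in this difference was not tested. In fibroblast-like cells Acvrl1 was at 17.9 to 104.3 CPM from 1 to 53 UMIs and was too low to be tested.

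The inhibitory Smads rose in ECs of EAE libraries. Smad7, which blocks both the BMP and the TGF-beta arm, was at 74.2, 64.1, 67.2 and 65.9 CPM in juvenile, 86.1, 106 and 107 CPM in adult, 127 and 122 CPM in aged and 214 and 215 CPM in EAE ECs. The EAE libraries lay above and the juvenile ones below all adult values. The difference from adult was 1.30 ± 0.10 in EAE (adjusted p = 6.84e-07) and -0.48 ± 0.09 in juvenile libraries (adjusted p = 0.000611) on the log2 scale, and the aged one was 0.31 ± 0.10 (adjusted p = 0.0733). With all alike libraries summed the juvenile call was lost (adjusted p = 0.0745) and the EAE one was not (0.000896). Smad6, more selective for BMP receptors, was at 34.8, 31.2, 18.9 and 23.9 CPM in juvenile, 31.2, 44.3 and 45.6 CPM in adult, 44.2 and 39.6 CPM in aged and 65.6 and 69.1 CPM in EAE ECs. The EAE values lay above all others (log2 fold change 0.91 ± 0.20, adjusted p = 0.00501), whereas the juvenile values overlapped with adult 1. With all alike libraries summed the adjusted p of the EAE difference was 0.0485.

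The juvenile difference of Smad6 in ECs (log2 fold change -0.54 ± 0.18, adjusted p = 0.0315) depended on which libraries and cells entered, with an adjusted p from 4.32e-06 to 0.637 over the alternatives. It was 0.107 without adult 2, 0.119 without adult 3, 0.05 without EAE 1, 0.0502 without EAE 2, 0.0563 without juvenile 3, 0.0752 without juvenile 4, 0.152 with near-identical libraries summed and 0.637 with cells named by a marker score. In capillary ECs alone, named as described below, the difference was larger, -1.27 ± 0.14 on the log2 scale (adjusted p = 4.32e-06). Smad6 was higher in arterial ECs, whose shares differed between conditions and between adult libraries, as given above. Mitotic ECs of juvenile libraries held it at 3.692 to 18.29 CPM. The part of arterial and mitotic cells in the difference over all ECs was not tested.

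In choroid plexus cells Smad6 was at 22.5, 19.2, 21.3 and 19.9 CPM in juvenile, 8.76, 9.83 and 12.3 CPM in adult, 9.14 and 10.4 CPM in aged and 15.3 and 15.7 CPM in EAE libraries. Juvenile and EAE values both lay above all adult and aged ones. The juvenile difference was 0.85 ± 0.16 on the log2 scale (adjusted p = 7.94e-05). The EAE difference of 0.48 ± 0.18 (adjusted p = 0.0447) was lost with DESeq2 (0.15), near-identical libraries summed (0.0605), all alike libraries summed (0.164), cells under 10% mitochondrial UMIs (0.0522), and without adult 1 (0.119), adult 2 (0.0535), EAE 1 (0.146), EAE 2 (0.185), juvenile 3 (0.061) or juvenile 4 (0.0576). Fibroblast markers in choroid plexus cells, given above, were likewise highest in juvenile and next in EAE libraries, and their part in the Smad6 levels was not tested. Smad7 in choroid plexus cells ran from 8.77 to 14.7 CPM with no call. Neither gene was called in mural or fibroblast-like cells, where Smad6 was too low to be tested and Smad7 rested on 1 to 30 UMIs in mural libraries.

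Id1 and Id3, as readouts, were lowest in juvenile and highest in EAE ECs. Id1 was at 482, 476, 438 and 471 CPM in juvenile, 1141, 914 and 941 CPM in adult, 1274 and 1198 CPM in aged and 1355 and 1296 CPM in EAE ECs. No juvenile value reached the adult ones, and both EAE and aged values lay above all of them. The log2 fold changes were -1.01 ± 0.09 in juvenile (adjusted p = 5.56e-07), 0.32 ± 0.10 in aged (adjusted p = 0.0697; 0.00295 without adult 1) and 0.61 ± 0.10 in EAE libraries (adjusted p = 0.000602). Id3 was at 987, 907, 803 and 812 CPM in juvenile, 1472, 1653 and 1714 CPM in adult, 1928 and 1852 CPM in aged and 2149 and 2168 CPM in EAE ECs. Its order was that of Id1, with -0.80 ± 0.09 in juvenile (adjusted p = 9.14e-06), 0.23 ± 0.11 in aged (adjusted p = 0.197) and 0.62 ± 0.11 in EAE libraries (adjusted p = 0.000871) on the log2 scale. The EAE calls of both genes were lost with all alike libraries summed (adjusted p = 0.112 for Id1 and 0.0805 for Id3), at log2 fold changes of 0.57 and 0.66, while the juvenile ones were not. Mitotic ECs of juvenile libraries, counted above, held Id1 at 300.3 to 375.5 CPM and Id3 at 683.1 to 790.6 CPM. Their part in the juvenile differences was not tested.
With plain totals in place of TMM factors, under which the median of all genes moved to -0.19 in EAE ECs, the EAE fold changes were 0.41 for Id1, 0.42 for Id3 and 0.71 for Smad6 on the log2 scale, and these genes and Smad7 (adjusted p = 2.63e-06) were still called.

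Id2, expressed in many immune and neural cells as well, did not follow. It was at 217, 185, 134 and 169 CPM in juvenile, 163, 264 and 253 CPM in adult, 242 and 236 CPM in aged and 177 and 180 CPM in EAE ECs. Adult 1 lay among the juvenile and EAE libraries, and no contrast was called (log2 fold changes -0.30 ± 0.17, 0.07 ± 0.21 and -0.16 ± 0.21, adjusted p = 0.181, 0.863 and 0.591). In capillary ECs alone Id2 was lower in juvenile libraries by -0.76 ± 0.17 on the log2 scale (adjusted p = 0.00302). Arterial ECs held more Id2, and the part of their shares, given above, in the Id2 of all ECs was not tested.
The immediate early genes, which respond to cell handling within minutes, also stood lower in juvenile ECs. The 14 genes summed to 4832 to 6617 CPM in juvenile, 9322 to 19409 CPM in adult, 15329 to 15451 CPM in aged and 17106 to 17619 CPM in EAE ECs, and 12 of 14 were called lower in juvenile libraries (background 48.2%). Their part in the juvenile Id1 and Id3 levels was not tested. In adult 1, where they were at 9322 CPM, Id1 was the highest of the adult values and Id3 the lowest.

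Outside ECs, the calls among Id genes were in juvenile choroid plexus and mural cells. In choroid plexus cells Id1 was at 72.4 to 103 CPM in juvenile and 102 to 140 CPM in adult libraries (log2 fold change -0.60 ± 0.12, adjusted p = 0.000227). Id2 was at 122 to 146 CPM in juvenile and 147 to 161 CPM in adult libraries (-0.37 ± 0.10, adjusted p = 0.00272; 0.0586 with near-identical libraries summed and 0.0694 with plain totals). Both sat lower in juvenile cells, with values that just overlapped for Id1. EC markers in these cells, given above, were likewise lower in juvenile (475 to 584 CPM) than adult libraries (1727 to 1881 CPM), Id1 was highest in ECs, and their part in the Id1 difference was not tested. The 14 immediate early genes in choroid plexus cells summed to 1387 to 1794 CPM in juvenile and 2365 to 2550 CPM in adult libraries, with 9 of 14 called lower and 1 higher (background 61.6%), and their part in the Id1 and Id2 differences was not tested. Id3 was at 139 to 246 CPM in juvenile, 190 to 229 CPM in adult and 293 to 326 CPM in EAE libraries, and the EAE difference was not called (0.46 ± 0.23, adjusted p = 0.149).

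Mural Id1 was at 86.0, 70.6, 70.5 and 73.4 CPM in juvenile, 149, 171 and 122 CPM in adult, 153 and 129 CPM in aged and 124 and 308 CPM in EAE libraries. All juvenile values lay below all others (log2 fold change -1.03 ± 0.25, adjusted p = 0.00443), in libraries that also held the largest share of smooth muscle cells, as given above. EC markers in mural cells summed to 323 to 418 CPM in juvenile and 1282 to 1412 CPM in adult libraries, and their part in the Id1 difference was not tested either. The difference was -2.16 ± 0.59 in smooth muscle cells (adjusted p = 0.0306) and -0.53 ± 0.27 in pericytes (adjusted p = 0.124), and whether these differ from each other was not tested. Mural Id3 ranged from 322 to 2410 CPM. It was 643 to 4235 CPM in smooth muscle cells and 143 to 719 CPM in pericytes, in every library higher in smooth muscle, and no contrast was called in either.

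In fibroblast-like cells the Id genes were high but variable. Id3 was at 1272 to 1427 CPM in juvenile, 1172 to 2655 CPM in adult, 2807 to 3183 CPM in aged and 1968 to 2305 CPM in EAE libraries, and Id2 at 565 to 899, 549 to 1720, 607 to 916 and 314 to 691 CPM in the same order. The adult libraries spanned the juvenile ones for both genes. None of Id1, Id2 and Id3 was called (adjusted p = 0.421, 0.319 and 0.137 in juvenile and 0.233, 0.177 and 0.771 in EAE libraries). The adult and EAE libraries held 55831 to 82881 UMIs of these cells in all, against 917854 to 1581823 in juvenile libraries, so these values are the least precise.

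Along the vessel tree the genes were higher in arterial than in capillary ECs. ECs were split by subclustering into arterial (17 to 150 per library), capillary (318 to 3091) and venous cells (42 to 365), again without the 10 genes, and compared within libraries. Capillary was the name left where a subcluster reached no arterial, venous, tip or mitotic name, so no capillary marker was required. Whether the capillary ECs of juvenile and other libraries belong to the same vessel segment was not tested. Of 431 juvenile arterial ECs 418 formed a subcluster of their own, whereas the arterial ECs of the other conditions lay in another, and of 2121 juvenile capillary ECs 1772 formed 1 subcluster. All 8 genes tested were higher in arterial than capillary ECs (8 of 8, background 36.0% of 8105 genes), led by Bmp4 (log2 fold change 3.402 ± 0.63, adjusted p = 0.000166), Bmp2 (2.79 ± 0.39, adjusted p = 1.62e-06), Smad6 (2.60 ± 0.12, adjusted p = 2.77e-17) and Id2 (1.48 ± 0.12, adjusted p = 1.96e-11). Smad7 (0.83), Id1 (0.50), Acvrl1 (0.46) and Id3 (0.35) were higher by less, and the calls of Id1 and Id3 were lost with near-identical libraries summed (adjusted p = 0.056 and 0.097) and without the filter on low counts (0.114 and 0.129). Smad6 and Id2 stood above the capillary value of the same library in all 11 libraries. This did not hold for Bmp4, whose fit takes the conditions together. Juvenile Bmp4 was at 4.81 to 16.0 CPM in arterial and 5.29 to 8.80 CPM in capillary ECs. The arterial value of juvenile 4 (4.81 CPM) lay below its capillary value (8.20 CPM). Libraries of the other conditions held Bmp4 at 14.0 to 109.8 CPM in arterial against 0 to 1.945 CPM in capillary ECs.

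Smad6 was at 155.6, 133, 82.2 and 112 CPM in arterial ECs of juvenile, 126, 195 and 159 CPM of adult, 213 and 197 CPM of aged and 256 and 311 CPM of EAE libraries. In capillary ECs it was at 15.7, 17.3, 11.8 and 9.94 CPM, 30.5, 36.2 and 37.0 CPM, 33.3 and 32.1 CPM, and 65.0 and 66.6 CPM in the same order, so the lowest arterial value lay above the highest capillary one. Within capillary ECs the conditions did not overlap except adult with aged. The EAE difference there was 1.101 ± 0.14 (adjusted p = 2.35e-05) on the log2 scale.

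**Figure D5:**
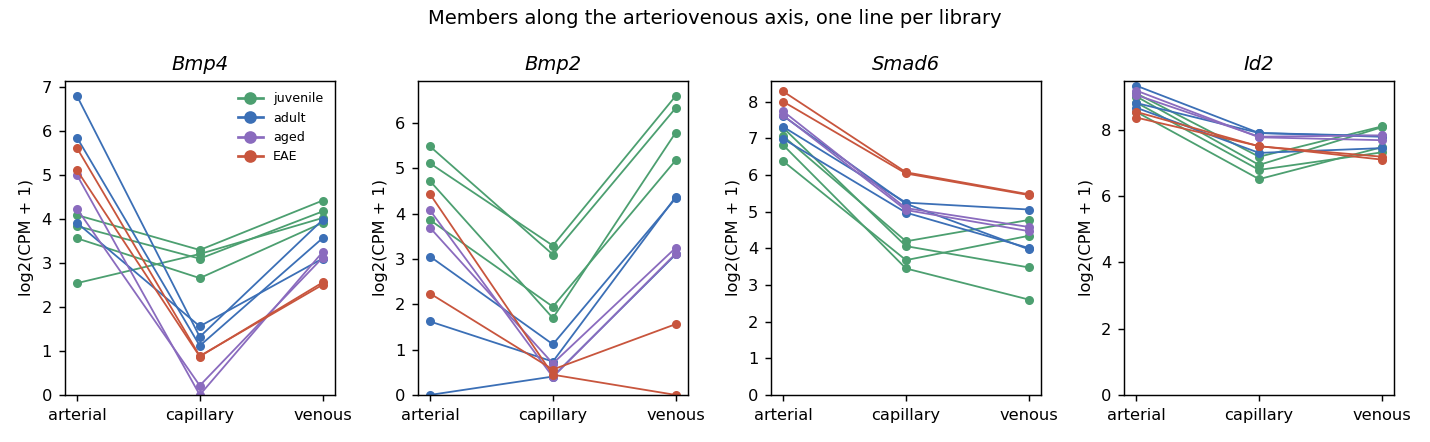
Levels in arterial, capillary and venous ECs (horizontal axis) as log2(CPM + 1) for Bmp4, Bmp2, Smad6 and Id2, with one line per library coloured by condition (4 juvenile, 3 adult, 2 aged and 2 EAE libraries). Smad6 and Id2 fall from arterial to capillary ECs in all 11 lines, and Bmp2 is highest in venous ECs of the juvenile libraries, at 35.1 to 95.6 CPM.

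Between venous and capillary ECs 3 of 8 genes were called (background 24.8%). Bmp2 was higher in venous ECs by 3.69 ± 0.33 on the log2 scale (adjusted p = 2.57e-09), at 95.6, 79.2, 35.1 and 54.1 CPM in juvenile, 7.56, 19.6 and 19.2 CPM in adult, 7.66 and 8.47 CPM in aged and 1.95 and 0 CPM in EAE libraries. Every juvenile value lay above every other, and the EAE libraries were lowest, with 4 and 0 UMIs. Capillary Bmp2 was at 2.24 to 8.80 CPM in juvenile and 0.316 to 1.17 CPM in all other libraries.
The venous calls of Bmp4 (2.02 ± 0.69, adjusted p = 0.0366) and Smad6 (-0.40 ± 0.15, adjusted p = 0.0473) were near the threshold. That of Bmp4 was lost without adult 1 (0.0526), adult 2 (0.0533), adult 3 (0.0661), aged 1 (0.0665), aged 2 (0.063), EAE 1 (0.0657) or EAE 2 (0.0561), with near-identical libraries summed (0.0776) and with finer subclusters (0.26). That of Smad6 was lost without adult 1 (0.0804), adult 2 (0.128), aged 1 (0.0813), aged 2 (0.0932), EAE 1 (0.098) or EAE 2 (0.119), with DESeq2 (0.119), with its size factors in edgeR (0.0508) and with all alike libraries summed (0.0544).

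The Bmp4 levels of arterial and capillary ECs took different orders over the conditions. In arterial ECs Bmp4 was at 16.0, 13.3, 10.8 and 4.81 CPM in juvenile, 14.0, 109.8 and 56.5 CPM in adult, 17.8 and 30.9 CPM in aged and 33.4 and 47.8 CPM in EAE libraries. In capillary ECs it was at 8.80, 7.55, 5.29 and 8.20 CPM, 1.95, 1.495 and 1.17 CPM, 0.158 and 0 CPM, and 0.830 and 0.844 CPM in the same order. Capillary values were thus highest in juvenile libraries without overlap (log2 fold change 2.41 ± 0.35, adjusted p = 4.96e-05), and the aged libraries held 1 and 0 UMIs. The lower capillary level of aged than adult libraries, which held 6, 9 and 7 UMIs, was called (adjusted p = 0.00683), and its fitted fold change is not given, as 1 aged library is at 0. Arterial adult 1 rested on 1 UMI. How the change with condition differs between the segments was not tested. Fibroblast markers over all ECs, given above, were likewise highest in juvenile libraries, and their part in the capillary Bmp4 was not tested. Over all ECs together, no juvenile difference of Bmp4 was called (log2 fold change 0.45 ± 0.31, adjusted p = 0.258).
In capillary ECs the log2 fold changes in juvenile libraries were -1.16 for Id1, -0.91 for Id3, -1.02 for Acvrl1 and -0.63 for Smad7, and in EAE libraries 0.64 for Id1, 0.62 for Id3 and 1.33 for Smad7, all called. The EAE difference of Bmp4 was not called in capillary ECs (adjusted p = 0.347).

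Whether ECs changed differently from the other cells was tested as the EC change minus the change of the other type in edgeR, for 9 genes. Against choroid plexus cells 5 of 9 differences were called in juvenile (background 57.0% of 11444 genes), 0 in aged (2.57%) and 3 in EAE libraries (26.2%). Against mural cells 2 were called in juvenile (8.71%), 0 in aged (0.0612%) and 0 in EAE libraries (1.28%). Against fibroblast-like cells 0 were called in juvenile (3.08%), aged (0.14%) and EAE libraries (0.856%). At an unadjusted p of 0.05 the counts of 0 became 3 against choroid plexus cells in aged, 2 and 0 against mural cells in aged and EAE, and 2, 1 and 3 against fibroblast-like cells in juvenile, aged and EAE libraries, with 0 called by DESeq2 in each.

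The difference with mural cells was carried by the ligands. Bmp4 changed in juvenile ECs and mural cells by amounts that differed by 3.43 ± 0.55 on the log2 scale (adjusted p = 3.55e-05). For Bmp2 the difference was 2.34 ± 0.75 (adjusted p = 0.0438), and it was lost with near-identical libraries summed (0.0563), with plain totals (0.0506) and without adult 1 (0.0613), adult 2 (0.111), adult 3 (0.211), aged 1 (0.066), aged 2 (0.0655), juvenile 2 (0.083) or juvenile 4 (0.0698).
With choroid plexus cells, Bmp2 rose in juvenile ECs by 2.90 ± 0.50 more than in choroid plexus cells (adjusted p = 7.31e-06), and Smad6 was at -1.53 ± 0.21 (adjusted p = 1.33e-08), since it was lower in juvenile ECs and higher in juvenile choroid plexus cells. Acvrl1 differed by 2.24 ± 0.23 in juvenile and 2.08 ± 0.24 in EAE libraries, where the choroid plexus values moved with EC markers as given above.
Bmp7 differed by -1.93 ± 0.59 in juvenile (adjusted p = 0.00754; 0.0958 without adult 1) and -1.95 ± 0.65 in EAE libraries (adjusted p = 0.028; 0.172 without adult 1, 0.0539 without adult 2, 0.229 without EAE 2 and 0.096 with near-identical libraries summed), where the EC values moved with choroid plexus markers as given above. Smad7 differed by -0.83 ± 0.24 in juvenile (adjusted p = 0.00314; 0.108 with DESeq2, 0.0616 with cells named by a marker score, 0.272 with near-identical libraries summed) and 0.97 ± 0.27 in EAE libraries (adjusted p = 0.00582; 0.31 with DESeq2, 0.128 with near-identical libraries summed).

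Lists of pathway genes were counted without the 10 genes. The lists overlap, as Bambi counts both as a target and as a modulator and Smad9 both as a target and as a Smad. Of 8 BMP receptor genes tested in ECs, 0 were higher and 2 lower in juvenile libraries (background 48.2%; median log2 fold change -0.15 against -0.04 for all genes), the type II receptor Bmpr2 (-1.84, from 32.6 CPM in adult to 8.19 CPM in juvenile) and, by less, Rgmb (-0.29). In EAE ECs edgeR called 0 of 8 receptors (background 32.2%; 1 at an unadjusted p of 0.05; median 0.06). Of 4 Smads, 2 were higher and 1 lower in juvenile ECs, with Smad5 at 0.75 and Smad1 at 0.57, and 2 were higher and 0 lower in EAE ECs, with Smad1 at 0.97 (median 0.365 against 0.01 for all genes). Smad1 is a signal transducer, and it was lower in aged ECs (-0.62, adjusted p = 0.0134; 0.0938 with near-identical libraries summed).

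Of 7 target genes in ECs, 2 were higher and 3 lower in juvenile libraries (background 48.2%; median 0.05), and 1 was higher and 2 lower in EAE libraries (background 32.2%; median -0.47). Members of the list went apart: Tmem100, an arterial gene downstream of Acvrl1, was higher in juvenile (1.39, 82.4 against 33.5 CPM) and aged ECs (1.28), and Msx1 was lower in juvenile (-0.88) and EAE ECs (-0.81). Atoh8 was higher in EAE ECs (2.22 on the log2 scale, 24.5 against 6.31 CPM, adjusted p = 3.25e-05). Among 6 antagonists and modulators, the secreted Fstl1 (2.52) and the pseudoreceptor Bambi (1.79, 291 against 87.5 CPM) were higher in juvenile ECs, 1 was lower, and in EAE ECs 0 were higher and 2 lower, with Sostdc1 at -2.73. Bambi is also among the targets counted higher in juvenile ECs. Fibroblast markers in ECs were at 36.8 to 67.3 CPM in juvenile and 19.8 to 26.3 CPM in adult libraries, and their part in the Fstl1 difference was not tested. Sostdc1 is abundant in choroid plexus cells (1050 CPM in adult libraries), and choroid plexus markers in ECs ran to 51383 CPM in adult 1 against 7009 to 7255 CPM in EAE libraries, so its part in ECs was not tested.

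In choroid plexus cells 3 of 4 Smads were higher and 0 lower in juvenile (background 61.6%; median 0.87 against -0.01 for all genes) and likewise 3 and 0 in EAE libraries (background 37.9%; median 0.80 against -0.04), among them the common partner Smad4 (1.35 and 0.91 on the log2 scale). Of 9 receptors 4 were higher and 1 lower in juvenile libraries, with the type I receptor Bmpr1a at 1.06 (51.3 against 21.5 CPM) and the type II receptor Acvr2b at 1.17, and 2 were higher and 1 lower in EAE libraries, with Bmpr1a at 0.90. The receptor that was lower was Eng in both contrasts. Of 8 targets 3 were higher and 1 lower in juvenile and 2 were higher and 3 lower in EAE libraries. Of 6 modulators 3 were higher and 0 lower in juvenile libraries (background 61.6%), and 2 were higher and 3 lower in EAE libraries (background 37.9%). Among them, Fstl1 was higher in juvenile cells (3.80, 24.9 against 1.45 CPM), and Twsg1, which shapes ligand gradients, was higher (1.01) and the antagonist Sostdc1 lower (-0.84) in EAE cells. Fibroblast markers in choroid plexus cells were at 148 to 163 CPM in juvenile and 26.2 to 43.1 CPM in adult libraries. Their part in the Fstl1 difference was not tested. Of 12 genes of the TGF-beta arm tested in ECs, 5 were higher and 2 lower in juvenile libraries (background 48.2%) and 5 were higher and 1 lower in EAE libraries (background 32.2%).
In fibroblast-like cells of EAE libraries the ligand Gdf10 was lower (-2.58, 37.2 against 229 CPM, adjusted p = 0.0363; 0.0522 with near-identical libraries summed). Of the cells behind these values 22 of 36 EAE and 8 of 58 adult cells lay in the smaller fibroblast-like cluster, and the part of that split was not tested.

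The genes most like each member were sought by Pearson's r of log2(CPM + 1) over 83 sums of cell type and library among 9607 genes, as a description without a test, since the sums share libraries and depth. Acvrl1 was most like the EC genes Kank3 (r = 0.904) and Gpr116 (0.888), Id1 like Palm (0.894) and Wfdc1 (0.853), and Id3 like Capn2 (0.903) and Selm (0.895). Bmp4 was nearest to Pgrmc1 (0.875) and the matrix gene Ogn (0.853), and Bmp7 to Pcdh7 (0.831) and Igfbp2 (0.82). Smad7 had the loosest match, with Irf2bpl (0.651) and Extl3 (0.645), and Smad6 was nearest to Socs2 (0.736) and Ptgfrn (0.705). Bmp2 was nearest to Hgsnat (0.736) and Tslp (0.701), Bmp6 to Clic3 (0.742) and Zfp185 (0.733), and Id2 to Mras (0.803) and Gjb6 (0.773).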

How the data were processed

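Single-cell 3′ RNA sequencing of myelin-depleted mouse cortex was analysed for 11 libraries. The authors demultiplexed reads with bcl2fastq 2.19.1.403, extracted barcodes with UMI-tools 0.5.3, aligned to mm10 with STAR 2.5.3a and assigned reads to genes with featureCounts 1.6.1 (versions per the submitters' processing notes), and deposited raw counts of UMIs per gene and barcode, not normalized.

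As in the study, cells needed over 500 and below 6000 genes and a mitochondrial share of UMIs below 25%. Counts were scaled to 10000 per cell in Python 3.11.15. Cells were grouped with 2000 variable genes, 25 principal components, 20 neighbours and Leiden clustering (leidenalg 0.10.2) at resolution 0.5. The 10 genes were kept out of clustering and naming, a name needed at least 3 detected markers, and subtypes came from subclustering within a type with 12 components. Subclusters with markers of a second class were set aside (2.07% of ECs, 4.02% of fibroblast-like, 3.65% of choroid plexus and 8.65% of mural cells, and 24.1% of mural cells in EAE libraries). Of the cells, 818 (1.62%) were called doublets by Scrublet in scanpy 1.11.5 and were kept, and leaving them out was tried as an alternative. Cell type names were rebuilt here and can differ from those of the study.

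UMIs were summed per library and cell type (at least 10 cells). CPM values use the plain total of each sum, and SDs are over libraries. Values after ± for log2 differences are approximate SEs. They are the absolute difference divided by the square root of the F of the edgeR test, not fitted standard errors. Tests were edgeR 4.0.16 robust quasi-likelihood fits (R 4.3.3, limma 3.58.1) with TMM factors and filterByExpr, over all 4 conditions of a type, with Benjamini-Hochberg adjustment over all genes tested and calls at an adjusted p of 0.05. The fits between cell types, of EC changes against other types and between EC subtypes had the library as a block. The scripts were tested on simulated data. No pair of libraries differed by less than sampling noise in both types compared (mean squared z of at most 1.1), so all 11 were counted. As alternatives, DESeq2 1.42.0, its size factors in edgeR, no filter on low counts, other cell definitions (a marker score, resolution 1.0, under 10% mitochondrial UMIs), near-identical libraries summed, each library left out and a replicate block were tried, and, chosen after seeing the data, plain totals, mixed subclusters kept, smooth muscle cells alone, each fibroblast-like cluster alone and the 2 EAE libraries summed as well. The named genes are the 10 genes, of each pathway list at most the 3 largest called changes per direction that reached 20 CPM in either group, and the 2 genes most alike. Endoglin, Cldn5, Flt1 and the cluster leaders were named after their values were seen. The genes and the lists were chosen with earlier results of these data known. Same-numbered libraries were not paired: the correlation of their deviations from the condition means was -0.195 to 0.101 over 13 pairs, against -0.123 to 0.195 over 31 other pairs.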

Additional observations from a re-analysis of the deposited data

Results flagged for a closer look

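In groups of 4 libraries, 2 of 40 sets of values had a library far from the rest by Dixon's criterion, about as many as chance gives (1 in 20): Smad7 in fibroblast-like cells of juvenile 4, at 51.18 CPM against 34.9 to 36.7 CPM, and Bmp6 in mural cells of juvenile 1, at 1.012 CPM from 1 UMI against 0.

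Changes against adult libraries that differed between cell types by a tested difference, given as the EC change minus the other change on the log2 scale, were as follows. Against choroid plexus cells in juvenile libraries they were Acvrl1 at 2.24, Bmp2 at 2.9, Bmp7 at -1.93, Smad6 at -1.53 and Smad7 at -0.83. Against choroid plexus cells in EAE libraries they were Acvrl1 at 2.08, Bmp7 at -1.95 and Smad7 at 0.97. Against mural cells in juvenile libraries they were Bmp2 at 2.34 and Bmp4 at 3.43. Of these, Bmp7 and Smad7 against choroid plexus cells and Bmp2 against mural cells were lost under some alternatives, as given beside them above, and Acvrl1 in choroid plexus cells moved with EC markers.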

How the results depend on the processing

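Of the called values, 1 changed direction (Id1 between choroid plexus and mural cells, -0.20 with plain totals), 1651 values of single genes under an alternative stayed on their side of the threshold and 113 lost a call. Counts of called genes moved by more than 1.5 times in 27 cases and by less in 231. In aged ECs (1 call) the count was 2 without the filter on low counts or with DESeq2, where Id1 was added, 0 with near-identical libraries summed, and 0 to 2 when each library was left out. For the EC change minus that of other types the aged count (0) was 2 without the filter and 0 to 2 with libraries left out (2 without adult 1), and the EAE count (3) was 5 without the filter and 1 with near-identical libraries summed. In fibroblast-like, choroid plexus and mural cells together, the EAE count (4) was 8 with cells named by marker score, which added Id1 and Id2 in mural and Id2 and Smad7 in choroid plexus cells, 8 with mixed subclusters kept, and 2 to 4 with libraries left out (2 without EAE 2). The venous count (3) was 1 to 3 with libraries left out. With near-identical and EAE libraries summed, which leaves 7 sums, the counts were 4, 0 and 2 in juvenile, aged and EAE ECs (6, 1 and 5 before), 1 for the EAE difference between cell types and 1 for venous ECs. With the replicate number as a block, although the numbers do not pair libraries, the counts were 5, 1 and 5 in juvenile, aged and EAE ECs and 9, 0 and 4 in the other types, and the call of Smad6 in juvenile ECs was lost (adjusted p = 0.108). Depth limits Bmp6 in all types, Bmp2 in adult and EAE ECs, and fibroblast-like and mural cells outside the juvenile libraries.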

Other observations

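Transcripts of these genes were also counted in cells outside the vessel wall and epithelium. Perivascular macrophage-like cells had a higher mean level of Bmp2 (79.6 CPM over the condition means) than each of the 4 types above, at 187, 218, 99.0 and 148 CPM in juvenile, 95.9, 110 and 124 CPM in adult, 27.8 and 36.5 CPM in aged and 16.3 and 10.2 CPM in EAE libraries, so that the aged and EAE values lay below all juvenile and adult ones. In microglia-like cells Id2 was at 175 to 215 CPM in juvenile, 381 to 425 CPM in adult, 478 to 483 CPM in aged and 954 and 891 CPM in EAE libraries, without overlap between conditions, and Id1 was at 16.1 to 27.7 CPM in juvenile against 92.7 to 99.8 CPM in adult libraries. Acvrl1, which was highest in ECs, was likewise at 18.9 to 24.8 CPM in juvenile and 61.7 to 86.2 CPM in adult microglia-like cells. The part of EC transcripts in the Id1 of these cells was not tested. Astrocyte-like cells had Id2 at 931 to 1638 CPM over all libraries, and Id3 at 1188 to 1789 CPM in juvenile, 512, 581 and 1226 CPM in adult, 888 to 953 CPM in aged and 329 to 517 CPM in EAE libraries. These values were not tested.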
